A study of Homo sapiens with 6 samples.

Results

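The genes described here encode the chaperones, folding enzymes and stress sensors of the endoplasmic reticulum (ER) and the heat shock chaperones of the cytosol and the mitochondria. They are 34 genes chosen by name from the 25528 gene symbols of the table, 22 of the ER and 12 of the cytosol or mitochondria. All 34 had a mean level of at least 1 TPM (transcripts per 1000000, a level corrected for length) after scaling between libraries, so all 34 were among the 11595 genes tested. RNA-seq was done on DU-145/tet-XISTshRNA cells, a human prostate carcinoma line that carries a tetracycline-inducible short hairpin RNA against the long non-coding RNA XIST. The transduced cells had been selected with puromycin or geneticin, and the labels name no single clone. Of the 6 libraries, 3 came from cells given vehicle (0.1% DMSO) and 3 from cells given doxycycline (DOX, 500 ng/ml) for 7 days. Cells of both groups carried the hairpin, and no library of DOX-treated cells without it was analysed here. A difference between the groups therefore cannot be told apart from an effect of DOX itself, an antibiotic that also inhibits the mitochondrial ribosome.

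The reads behind the table, recovered from the deposited values, ranged from 5452479 in vehicle replicate 3 to 64571620 in DOX replicate 1, and the other 4 libraries held 16701856 to 20358154. From 67.5% to 82.6% of all TPM in a library belonged to 5 genes of small RNAs (RPPH1, RN7SK and the 3 signal recognition particle RNAs RN7SL1, RN7SL2 and RN7SL3), so levels were scaled between libraries by the median of ratios before comparison and are given below as scaled TPM. The targeted gene XIST is listed at 0 in all 6 libraries, as is EIF4A1, a translation factor gene that every cell uses, so the listed 0 checks neither the hairpin nor the labels. The epithelial markers EPCAM, KRT8, KRT18 and CDH1 were present in every library, from 5.08 scaled TPM for CDH1 to 122 for KRT18. Of the markers of other cell types, PTPRC and PECAM1 did not exceed 0.0376, COL1A1 lay between 0.268 and 0.545, and CD68, a lysosomal gene, lay between 11.4 and 17.8.

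Proteins that enter the ER are folded there by the HSP70 family member BiP (HSPA5), the HSP90 family member GRP94 (HSP90B1), the lectin chaperones calnexin and calreticulin, and the protein disulfide isomerases. When unfolded proteins build up, the sensors IRE1 (ERN1), ATF6 and PERK start the unfolded protein response, in which spliced XBP1 and cleaved ATF6 raise transcription of ER chaperones and of the genes of ER-associated degradation (ERAD). In the cytosol, HSF1 raises transcription of the heat shock proteins when proteins misfold there. Secretory epithelia such as that of the prostate express many of these chaperones without stress.

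The DNA elements through which these factors act are shown because each of the motifs searched was found in ER genes alone or in cytosolic and mitochondrial genes alone, in a minority of the members of each. Promoter windows of 250 bases before to 50 bases after each RefSeq transcript start (GRCh38.p14) were found for 32 of the 34 genes, all but PDIA3 and HSF1. Below, each sequence is written 5′ to 3′ on the strand named, in lower case with the letters of the motif in capitals. Capitals mark exact matches alone, and sites that differ from the searched letters, as some in the HSPA5 window do, are left unmarked. HSPA5, the classical target of the unfolded protein response, holds the ER stress response element (ERSE, searched as CCAAT and CCACG with any 9 bases between them) in chr9:125241294-125241593, printed on the minus strand, which is the strand of the gene:
HSPA5: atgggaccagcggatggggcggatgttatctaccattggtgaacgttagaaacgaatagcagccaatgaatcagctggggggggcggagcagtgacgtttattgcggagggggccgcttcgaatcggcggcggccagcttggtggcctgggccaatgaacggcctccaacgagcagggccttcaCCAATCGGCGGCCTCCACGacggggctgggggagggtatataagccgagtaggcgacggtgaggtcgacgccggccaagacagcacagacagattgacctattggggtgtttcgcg
HSPA8, the constitutive cytosolic HSP70, holds the heat shock element (HSE, searched as GAA, TTC and GAA with any 2 bases between each) at 2 places in chr11:123062087-123062386, also printed on the minus strand of its gene, once in each orientation:
HSPA8: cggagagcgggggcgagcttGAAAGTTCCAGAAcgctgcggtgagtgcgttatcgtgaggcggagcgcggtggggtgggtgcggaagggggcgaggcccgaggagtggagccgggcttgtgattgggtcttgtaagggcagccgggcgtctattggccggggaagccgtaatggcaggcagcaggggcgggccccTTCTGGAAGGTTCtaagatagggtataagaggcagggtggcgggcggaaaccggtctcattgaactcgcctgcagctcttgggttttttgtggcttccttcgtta

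The other matches to ERSE are printed with the 6 bases on each side and in the orientation of the motif, to show how far the 9 bases between its conserved ends differ. They lie at chr12:103930210-103930240 (plus strand) and chr12:103930315-103930345 (minus) for HSP90B1, chr19:12938378-12938408 (minus) for CALR, chr5:179698772-179698802 (plus) for CANX, chr2:10812847-10812877 (minus) for PDIA6, chr22:28800597-28800627 (minus) for XBP1 and chr22:49918548-49918578 (minus) for CRELD2.
HSP90B1: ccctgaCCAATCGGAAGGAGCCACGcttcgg
HSP90B1: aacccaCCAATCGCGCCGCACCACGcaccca
CALR: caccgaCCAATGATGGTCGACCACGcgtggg
CANX: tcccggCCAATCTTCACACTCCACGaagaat
PDIA6: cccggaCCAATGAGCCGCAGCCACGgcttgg
XBP1: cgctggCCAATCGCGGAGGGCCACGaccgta
CRELD2: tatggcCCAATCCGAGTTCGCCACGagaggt
ERSE-II (searched as ATTGG and CCACG with any single base between them), the shorter element, was found at chr11:119057374-119057396 and chr11:119057268-119057290 (both plus) for HYOU1, chr16:56932019-56932041 (plus) for HERPUD1 and chr22:21642108-21642130 (minus) for SDF2L1.
HYOU1: cctgggATTGGACCACGtcacgg
HYOU1: gtactcATTGGACCACGtcccag
HERPUD1: acgccgATTGGGCCACGttggga
SDF2L1: gttttgATTGGTCCACGcttccg
Further heat shock elements lay at chr14:102087114-102087138 (plus) for HSP90AA1, chr6:44247772-44247796 and chr6:44247825-44247849 (both minus) for HSP90AB1 and chr2:197500062-197500086 (minus) for HSPD1, where a second match on the other strand overlaps it.
HSP90AA1: cctcccGAACCTTCCGGAAgaaccc
HSP90AB1: gcccatGAATCTTCCAGAAcctgct
HSP90AB1: aatccaGAAGCTTCCAGAAcaatct
HSPD1: tttctgGAAAGTTCTGGAAccgagc

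Both strands were searched in all 35116 promoter windows. The percentages are shares of windows, whereas a gene, which can have several windows, was counted when any of its windows matched. ERSE was in 0.0769% of them and in 7 of the 21 ER genes with a window, and ERSE-II was in 0.0541% of them and in 3 of the 21. Neither was found in the 11 cytosolic or mitochondrial genes with a window. HSE was in 0.49% of all windows, in 4 of the 11 and in none of the 21 ER genes. The unfolded protein response element (UPRE, searched as TGACG followed directly by TGG) was in 0.729% of all windows and, among the 32 genes with a window, only in HYOU1, where it overlaps the more distant ERSE-II. The CCACG end is common to ERSE and ERSE-II. The window of HSPE1 shares 204 bases with a window of HSPD1, its neighbour on the other strand, and the HSE of HSPD1 lies in the window of another HSPD1 start, outside the shared bases. A match to these letters is a description of the window and not a test that a factor binds there. Only exact matches were counted, so a gene without a match can still hold an element that differs from these letters.

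**Figure D1:**
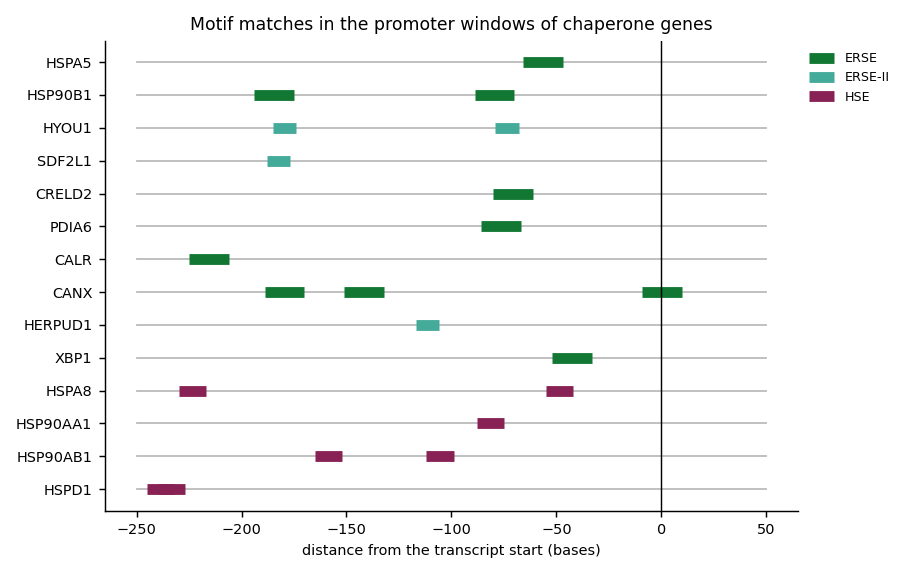
Positions of the matches to ERSE (dark green), ERSE-II (light green) and HSE (purple) in the promoter windows of 14 chaperone genes, in bases from the transcript start, with each window drawn as a grey line. The 10 ER genes drawn carry ERSE or ERSE-II and the 4 cytosolic or mitochondrial genes drawn carry HSE, and the 3 bars of CANX are a single genomic site seen from 3 annotated starts.

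No chaperone gene differed between DOX and vehicle past the threshold. In the limma fit over all 11595 genes, 0 of the 22 ER genes and 0 of the 12 cytosolic or mitochondrial genes had a Benjamini-Hochberg adjusted p under 0.05 in either direction, and 0% of all genes did. At an unadjusted p under 0.05, 5 of the 34 genes were higher with DOX (MANF, HSPA8, HSPB1, BAG3 and HSF1) and 2 were lower (DNAJC3 and SEL1L), against 8.12% of all genes higher and 7.75% lower. When replicates of the same number were treated as blocks, limma again called 0 genes. The log2 fold changes of the 34 genes ran from -0.42 for DNAJC3 to 0.57 for BAG3. Of the 34, 23 were above 0, beside 6129 of the 11595 genes tested. Their median was 0.08, beside 0.02 over all genes tested.

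The DOX libraries lay entirely above the vehicle libraries in 5 of the 34 genes (MANF, HSPA1B, HSPA8, DNAJB1 and HSF1), 14.7% of them, beside 10.9% of all genes. They lay entirely below in 3 genes (DNAJC3, SEL1L and ATF6), 8.82%, beside 9.15% of all genes. In the other 26 genes the groups overlapped. Within each replicate number the DOX library was the higher in 11 of the 34 genes, 6 of them with overlapping groups (PDIA4, P4HB, CALR, HYOU1, HSPB1 and BAG3), beside 27% of all genes. It was the lower within each replicate number in 7, of which 4 had overlapping groups (HSP90B1, EDEM1, ERN1 and CANX), beside 24.5% of all genes. The ER genes had a median log2 fold change of 0.03, with 14 of 22 above 0, and the median was -0.02 without vehicle replicate 3. The cytosolic and mitochondrial genes had a median of 0.15, with 9 of 12 above 0, beside 6129 of the 11595 genes tested. The median deviation of these 12 genes from their mean over all libraries was -0.05, -0.13 and -0.10 on the log2 scale in vehicle replicates 1, 2 and 3 and 0.03, 0.17 and 0.10 in the DOX replicates, whereas for the 22 ER genes it was 0.01, 0.04 and -0.08 with vehicle and 0.01, -0.02 and 0.02 with DOX. In total RNA of a culture, a change in every cell and a change in the number of expressing cells cannot be told apart.

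A weighted fit (voom) on the recovered reads with the replicate block made 7 calls among the 34 genes. It called HYOU1 (log2 fold change 0.35, adjusted p = 0.0359), HSPA8 (0.38, adjusted p = 0.0358), HSPB1 (0.55, adjusted p = 0.0291), BAG3 (0.56, adjusted p = 0.0162) and HSF1 (0.55, adjusted p = 0.0162) higher with DOX. It called DNAJC3 (-0.45, adjusted p = 0.0215) and SEL1L (-0.33, adjusted p = 0.0399) lower. That fit called 5.65% of all genes higher and 7.93% lower. Without the block voom called none of the 34, and with the block and a correction for GC content and length it called none of the 34 either, beside 0% of all genes higher and 0.0371% lower.

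**Figure D2:**
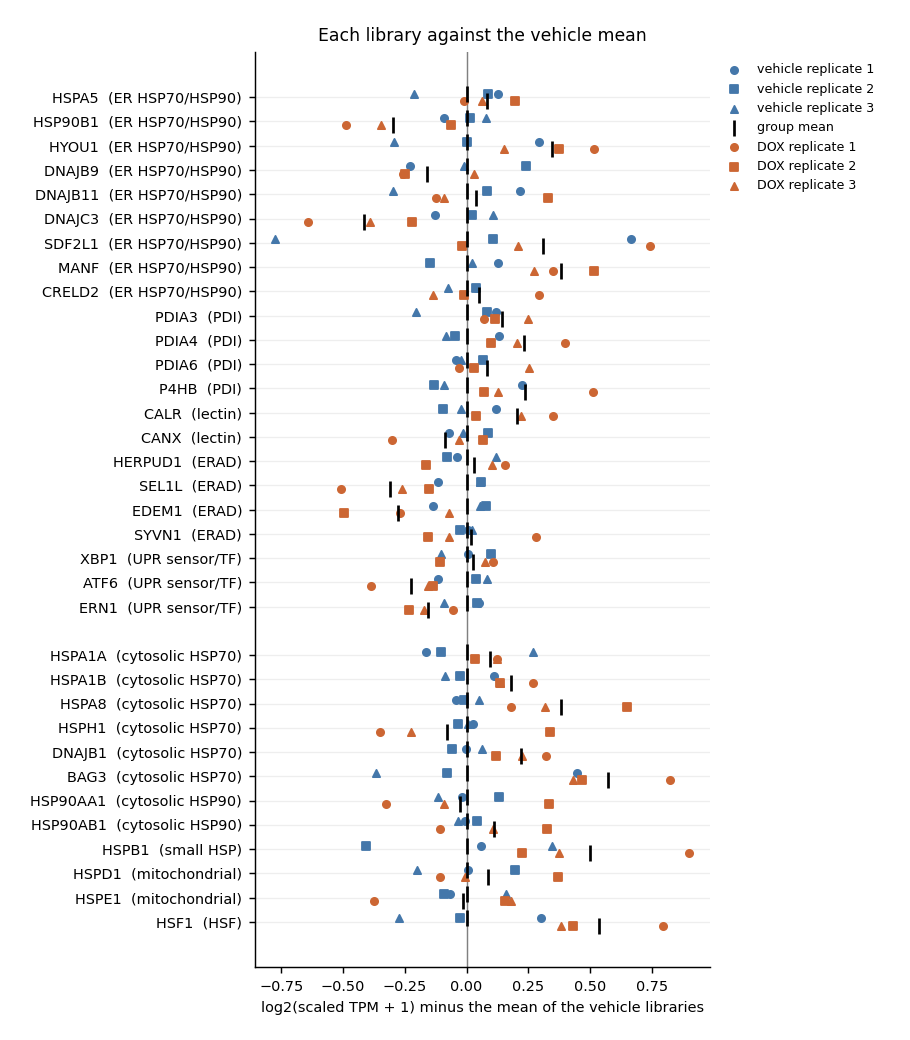
Log2(scaled TPM + 1) of each library minus the mean of the 3 vehicle libraries, for the 22 ER genes (upper block) and the 12 cytosolic or mitochondrial genes (lower block), with vehicle in blue, DOX in orange, the replicate number as the marker shape and the group mean as a black bar. On this scale the DOX bars lie on both sides of 0 among the ER genes and to the right of it in 9 of the 12 heat shock genes, and the libraries of the 2 groups overlap in 26 of the 34 genes.

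Among the ER HSP70 and HSP90 chaperones and their cofactors, the mean levels of HSPA5, the usual readout of ER stress, differed by less than the spread within a group (104 ± 13.1 with vehicle and 109.8 ± 8.02 with DOX (SD, n = 3 each)). HSPA5, described here because of that role and outside the rule for named genes, stood at 113, 110.0 and 89.1 scaled TPM in vehicle replicates 1, 2 and 3 and at 103, 119 and 108 in DOX replicates 1, 2 and 3. The groups overlapped, and vehicle replicate 3, the shallowest library, was the lowest. The log2 fold change was 0.08 (95% interval -0.22 to 0.38, limma adjusted p = 0.762), a fold interval of 0.86 to 1.3, and without vehicle replicate 3 it was -0.02.

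HSP90B1, the ER HSP90 and the highest of these 9 genes, stood at 189, 203 and 213 scaled TPM with vehicle and at 143, 193 and 158 with DOX. DOX replicates 1 and 3 lay below every vehicle library, while DOX replicate 2 lay among them. Its log2 fold change was -0.30 (95% interval -0.61 to 0.01, limma adjusted p = 0.323). DNAJC3, a J-domain partner of BiP known as p58IPK, had the most negative change of the 34 genes, with 11.0, 12.3 and 13.2 scaled TPM with vehicle and 7.42, 10.3 and 9.03 with DOX. All DOX libraries lay below all vehicle libraries, with means of 12.2 ± 1.08 with vehicle and 8.91 ± 1.43 with DOX (SD, n = 3 each). The log2 fold change was -0.42 ± 0.14 (SE, limma adjusted p = 0.281), and after the correction for GC content and length it was -0.22.

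MANF, a small protein that binds BiP and is secreted under ER stress, was the only ER gene with all DOX libraries above all vehicle libraries. It stood at 33.1, 27.2 and 30.7 scaled TPM with vehicle and at 38.9, 43.7 and 36.8 with DOX, a log2 fold change of 0.38 ± 0.13 (SE, limma adjusted p = 0.281). HYOU1, the large HSP70 relative that exchanges the nucleotide of BiP, stood at 27.4, 22.2 and 17.9 with vehicle and at 32.2, 29.1 and 24.8 with DOX. The vehicle library of replicate 1 overlapped the DOX range, and within each replicate number the DOX library was the higher, with a log2 fold change of 0.35 ± 0.17 (SE, limma adjusted p = 0.328). The values of MANF and HYOU1 are given because a count above names them.

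The J-domain cofactors DNAJB9 and DNAJB11, which bring substrates to BiP, had log2 fold changes of -0.16 and 0.04, and CRELD2, a secreted protein induced by ER stress, had 0.05. SDF2L1, which works with DNAJB11, had 0.31 with a 95% interval of -0.41 to 1.03, the widest of the 34. It rested on few reads, from 7 in vehicle replicate 3 to 363 in DOX replicate 1, and its log2 fold change was -0.07 without vehicle replicate 3. In these 4 genes the groups overlapped, and the lowest limma adjusted p was 0.595, for DNAJB9.

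The 4 protein disulfide isomerases, which make and rearrange disulfide bonds, all had log2 fold changes above 0 on scaled TPM and below 0 on TPM as deposited, and none passed the test. P4HB, the founding member, stood at 128, 100.0 and 103 scaled TPM with vehicle and at 157, 115 and 119.8 with DOX, a log2 fold change of 0.24 (95% interval -0.11 to 0.59, limma adjusted p = 0.445). Replicate 1 was the highest library of each group and the groups overlapped. PDIA4 had a log2 fold change of 0.23, PDIA3, the partner of the lectin chaperones, 0.15, and PDIA6 0.08, each with overlapping groups.

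The lectin chaperones, which hold glycoproteins in the ER until they fold, had changes of opposite sign. Membrane-bound CANX, the highest ER gene by mean level, stood at 198, 222 and 206 scaled TPM with vehicle and at 169, 219 and 205 with DOX (log2 fold change -0.09, 95% interval -0.39 to 0.21). Soluble CALR stood at 190.2, 164 and 173 with vehicle and at 224, 180.2 and 204 with DOX (log2 fold change 0.20, 95% interval -0.09 to 0.50). The groups overlapped in both genes, with limma adjusted p-values of 0.749 and 0.435. The libraries of CANX, CALR and HSP90B1, the ER genes with the highest mean levels, overlapped one another in level, from 143 to 224 scaled TPM.

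In ERAD, SEL1L is the adaptor of the ubiquitin ligase SYVN1 (HRD1), HERPUD1 is a further component of that complex, and EDEM1 helps to select misfolded glycoproteins. SEL1L stood at 18.2, 20.6 and 20.6 scaled TPM with vehicle and at 13.6, 17.7 and 16.3 with DOX. All DOX libraries lay below all vehicle libraries, and the log2 fold change was -0.31 ± 0.13 (SE, limma adjusted p = 0.303). EDEM1, the highest of the 4, stood at 20.4, 23.8 and 23.4 with vehicle and at 18.4, 15.6 and 21.3 with DOX, with a log2 fold change of -0.28 (limma adjusted p = 0.343) and an overlap made by DOX replicate 3. Its change was -0.30 after the GC and length correction, against -0.08 for SEL1L. SYVN1 and HERPUD1 had log2 fold changes of 0.02 and 0.03, with 95% intervals of -0.29 to 0.33 and -0.27 to 0.33.

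Of the sensors and transcription factors of the unfolded protein response, XBP1 stood at 23.0, 24.6 and 21.2 scaled TPM with vehicle and at 24.7, 21.2 and 24.2 with DOX, a log2 fold change of 0.02 (95% interval -0.25 to 0.30, limma adjusted p = 0.928). These values sum both forms of the XBP1 transcript, so its splicing by IRE1 is not measured here. ATF6 stood at 8.34, 9.39 and 9.72 with vehicle and at 6.75, 8.22 and 8.09 with DOX. Its DOX libraries lay below its vehicle libraries, DOX replicate 2 only just, with a log2 fold change of -0.23 (95% interval -0.51 to 0.06, limma adjusted p = 0.386), and after the GC and length correction it was -0.05. ERN1, which encodes IRE1, had a mean of 2.78 scaled TPM with vehicle and 2.40 with DOX and a log2 fold change of -0.15.

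In the cytosol, the constitutive HSPA8 was among the most abundant of the 34 transcripts. The stress-inducible HSP70 genes were listed at low TPM in both groups. HSPA8 stood at 300.2, 307 and 320.3 scaled TPM with vehicle and at 350.2, 485 and 386 with DOX. All DOX libraries lay above all vehicle libraries, and DOX replicate 2 was the highest. The log2 fold change was 0.38 ± 0.15 (SE, 95% interval 0.06 to 0.71, limma adjusted p = 0.281), and after the GC and length correction it was 0.40.

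HSPA1A and HSPA1B, the stress-inducible HSP70 genes, lie side by side on chromosome 6 and are nearly identical in sequence, so the split of reads between them is uncertain. The heat shock genes HSPA8, HSP90AA1, HSP90AB1, HSPD1 and HSPE1 have processed pseudogenes, and how shared reads were counted is not given in the sources used here. HSPA1A lay between 3.30 and 4.81 scaled TPM over the 6 libraries and HSPA1B between 1.98 and 2.82, with log2 fold changes of 0.09 and 0.18. These levels are low for their reads. HSPA1A had 463 to 5158 recovered reads and HSPA1B 198 to 3555, beside 190 to 5779 for BAG3 at 10.3 to 24.7 scaled TPM. Exonic lengths are 2404, 2517 and 2737 bases, so the low TPM of HSPA1A and HSPA1B may not mean low expression. The cause was not tested. The DOX libraries of HSPA1B lay above its vehicle libraries, and those of HSPA1A overlapped. HSPA6, an HSP70 gene induced by severe heat stress and outside the 34, did not exceed 0.118 scaled TPM in any library, with 1 to 25 reads, and is named here after its values were seen. DNAJB1, the J-domain partner of cytosolic HSP70, given here because its groups did not overlap, stood at 37.9, 36.4 and 39.7 with vehicle and at 47.7, 41.4 and 44.6 with DOX. Its log2 fold change was 0.22 ± 0.12 (SE, limma adjusted p = 0.357). HSPH1, the HSP110 exchange factor, had a log2 fold change of -0.08, with DOX replicate 2 above and DOX replicates 1 and 3 below every vehicle library.

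BAG3, the HSP70 cofactor that links bound proteins to autophagy, had the highest log2 fold change of the 34 genes, which did not pass the test. It stood at 18.8, 12.7 and 10.3 scaled TPM with vehicle and at 24.7, 19.1 and 18.6 with DOX, means of 13.9 ± 4.41 with vehicle and 20.8 ± 3.42 with DOX (SD, n = 3 each). Vehicle replicate 1 overlapped the DOX libraries, and vehicle replicates 2 and 3 lay below them. The log2 fold change was 0.57 ± 0.20 (SE, 95% interval 0.12 to 1.03, limma adjusted p = 0.281), and with the replicate block the adjusted p was 0.0554. HSF1, the transcription factor of the heat shock response, stood at 15.3, 11.996 and 9.92 with vehicle and at 21.9, 16.8 and 16.2 with DOX. Its groups did not overlap, and replicate 1 was the highest library of each group. The log2 fold change was 0.54 ± 0.17 (SE, 95% interval 0.15 to 0.92, limma adjusted p = 0.281), and with the replicate block the adjusted p was 0.0554.

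HSPB1, the small heat shock protein HSP27, stood at 92.5, 66.8 and 113 scaled TPM with vehicle and at 167, 104 and 115 with DOX. Vehicle replicate 3 overlapped the DOX libraries, and DOX replicate 1 was the highest of the 6. The log2 fold change was 0.50 ± 0.22 (SE, limma adjusted p = 0.309), and after the GC and length correction it was 0.17. HSP90AB1, the constitutive cytosolic HSP90 and the most abundant of the 34 transcripts by mean level, stood at 403, 418 and 395 with vehicle and at 376, 508 and 437 with DOX. The groups overlapped, with DOX replicate 1 lowest and DOX replicate 2 highest, and the log2 fold change was 0.11 (95% interval -0.21 to 0.43). The inducible HSP90AA1 had a log2 fold change of -0.03 (95% interval -0.41 to 0.35), again with DOX replicate 1 lowest and DOX replicate 2 highest.

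The mitochondrial chaperonin HSPD1 (HSP60) stood at 73.6, 84.0 and 63.5 scaled TPM with vehicle and at 67.8, 95.01 and 72.9 with DOX, a log2 fold change of 0.09 (95% interval -0.27 to 0.44, limma adjusted p = 0.795). Its lid protein HSPE1 (HSP10), encoded by the neighbouring gene on the other strand, had a log2 fold change of -0.01 (95% interval -0.39 to 0.36). The groups overlapped in both. The annotated span of HSPE1 (chr2:197500140-197503449) lies within that of HSPD1 (chr2:197486584-197516737). The strand setting of the counting is not given in the sources used here.

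**Figure D3:**
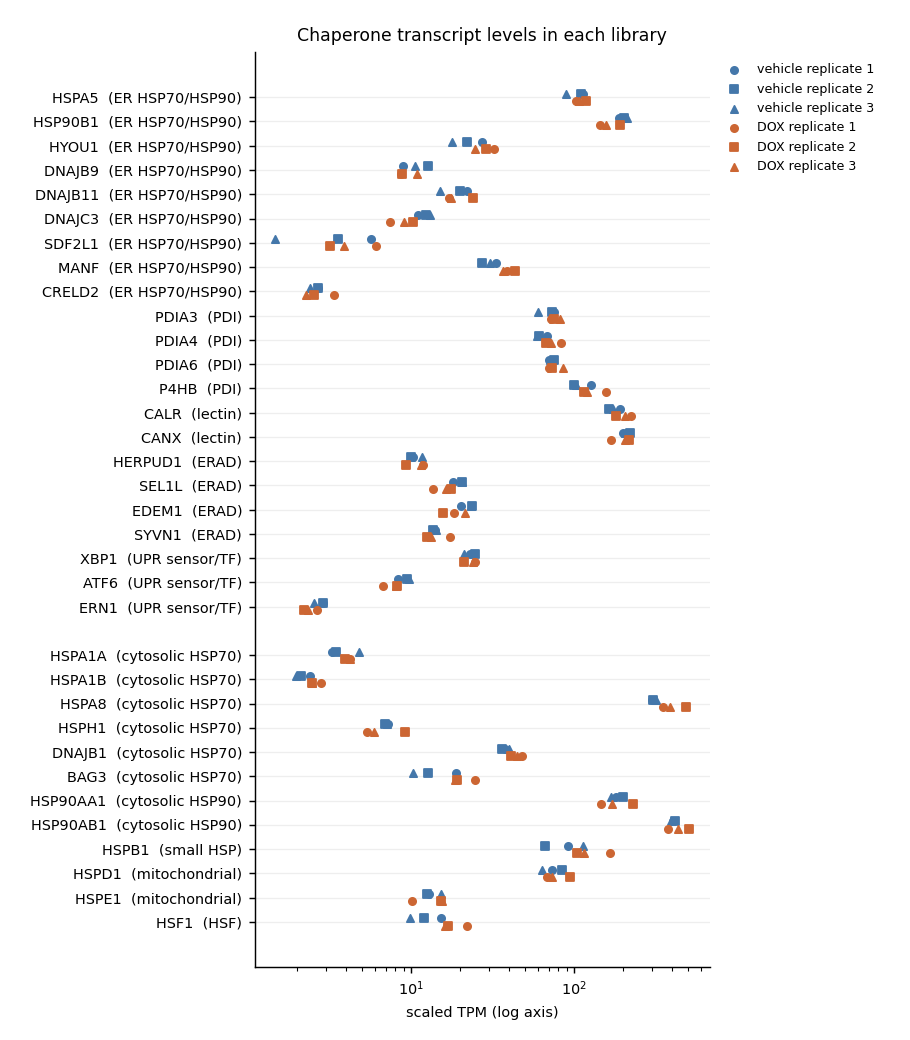
Scaled TPM of the 34 chaperone genes in each of the 6 libraries on a log axis, ER genes above and cytosolic or mitochondrial genes below, with vehicle in blue, DOX in orange and the replicate number as the marker shape. Levels run from about 1.48 for SDF2L1 in vehicle replicate 3 to 508 for HSP90AB1 in DOX replicate 2, and the spread between genes is far wider than the spread between the groups of any gene.

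The genes with an HSE or ERSE match did not share a direction. Among the 10 ER genes with ERSE or ERSE-II, log2 fold changes ran from -0.30 for HSP90B1 to 0.35 for HYOU1. Among the 4 with HSE they were -0.03 for HSP90AA1, 0.09 for HSPD1, 0.11 for HSP90AB1 and 0.38 for HSPA8. None of these 14 genes was called in the limma fit on scaled TPM.

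The differences of the 34 genes moved with the base composition of their transcripts. On scaled TPM, all 13 genes with a GC content of 50% or more had a log2 fold change above 0, with a median of 0.23, and 9 of the 11 genes under 45% had one below 0, with a median of -0.09. Across the 34 genes Pearson's r between GC content and log2 fold change was 0.69 and Spearman's rho 0.69, and across the 10788 tested genes with a known GC content they were 0.66 and 0.70. The points share the same 6 libraries. A spline correction for GC content and length in each library removes the linear relation to GC content over all tested genes by construction. After it, r over the 34 genes was -0.02. The median of the 13 GC-rich genes was then 0.10 and that of the 11 GC-poor genes -0.01. With the correction, the median of the cytosolic and mitochondrial genes went from 0.15 to 0.17 and that of the ER genes from 0.03 to 0.0006. The part of GC content in the differences was not tested.

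Under that correction the log2 fold change of HSPA8 went from 0.38 to 0.40, that of BAG3 from 0.57 to 0.34, that of HSF1 from 0.54 to 0.29 and that of MANF from 0.38 to 0.27. HSP90B1 went from -0.30 to -0.06. CANX went from -0.09 to 0.17, HSPH1 from -0.08 to 0.18 and HSPA1A from 0.09 to -0.16. No gene passed the threshold in the limma fits with this correction.

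**Figure D4:**
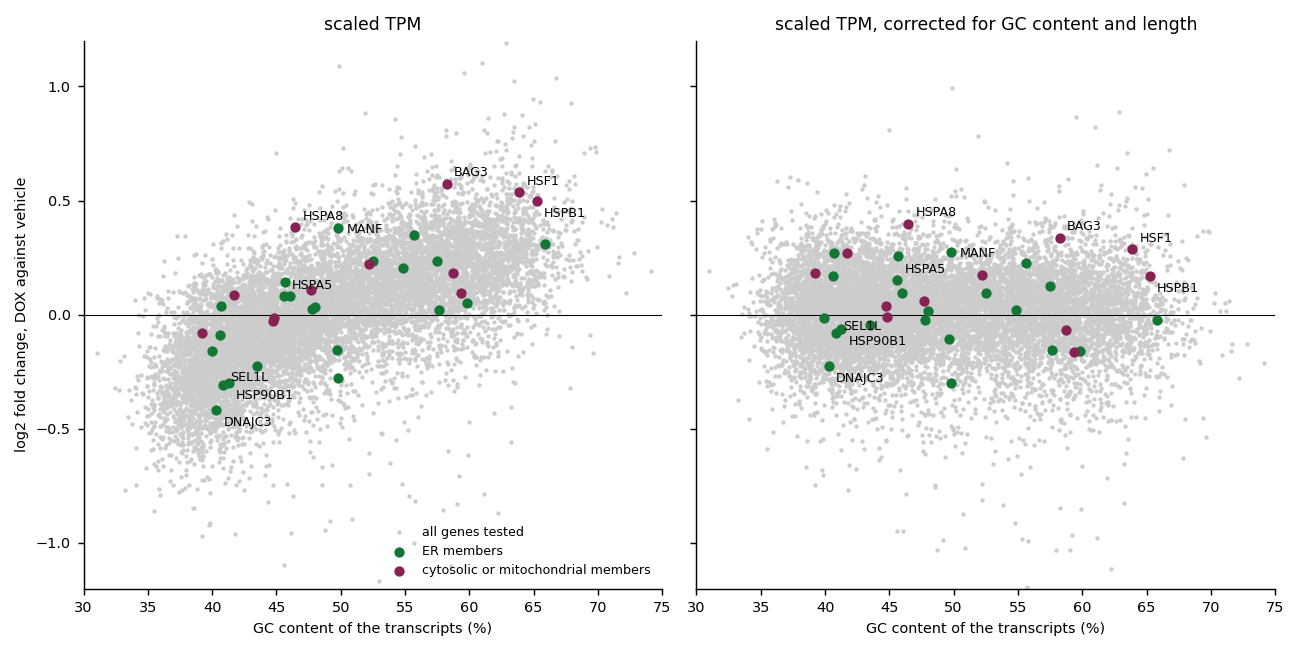
Log2 fold change of DOX against vehicle over the GC content of the transcripts in percent, on scaled TPM (left) and after the correction for GC content and length (right), with ER genes in green, cytosolic or mitochondrial genes in purple and all genes tested in grey. On the left BAG3, HSF1 and HSPB1 lie at the GC-rich upper right and DNAJC3, SEL1L and HSP90B1 at the GC-poor lower left. On the right the slope is removed by the correction itself. In all, 4 genes on the left and 6 on the right lie beyond the axis limits of 1.2.

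The choice of scaling between libraries changed the sign of many of these differences. On TPM as deposited the median log2 fold change over all genes was -0.35, that of the ER genes -0.38 and that of the cytosolic and mitochondrial genes -0.24. Of the 23 genes above 0 on scaled TPM, 20 turned below 0, among them HSPA8 (-0.06) and MANF (-0.05), and HSPB1, BAG3 and HSF1 were above 0 on both scales. On those values limma called 0 of the 34 genes, beside 4 of all genes higher (0.0343%) and 348 lower (2.98%). With the replicate block it called 8 ER genes lower (HSP90B1, DNAJB9, DNAJC3, SEL1L, EDEM1, ATF6, ERN1 and CANX) and no cytosolic or mitochondrial gene, beside 34% of all genes lower and 0.257% higher. Relative to the median of all genes, the ER genes then stood close to 0 and the cytosolic and mitochondrial genes above it, as on scaled TPM.

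The rest of the folding machinery was read from 7 lists of 121 genes, of which 114 passed the minimum. Limma called 0 of the 114 on scaled TPM, and voom with the block called 14 higher and 8 lower, beside 5.65% of all genes higher and 7.93% lower. It called none of these with the GC and length correction added. The list of HSP90 cochaperones and BAG genes, which also holds the mitochondrial HSP90 gene TRAP1, had the highest median of the lists, 0.26 over 18 genes. In voom with the block 8 of the 18 were called higher (STIP1, AHSA1, CDC37, FKBP4, TRAP1, UNC45A, SGTA and BAG6) and 0 lower, beside the same shares of all genes. The highest value was that of FKBP4, with 8.22, 6.38 and 5.35 scaled TPM with vehicle and 9.00, 12.8 and 9.33 with DOX (log2 fold change 0.57, limma adjusted p = 0.28), and the lowest was that of CHORDC1 (-0.22).

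The CCT chaperonin, which folds actin and tubulin, had all 8 subunit genes above 0 on scaled TPM, beside 6129 of the 11595 genes tested. Their median was 0.16, and 1 of them, CCT7, was above 0 on TPM as deposited. The changes ran from 0.10 for CCT2 to 0.53 for CCT7. Voom with the block called CCT3 and CCT7 higher, beside 5.65% of all genes, and with the GC and length correction added it called none of the 8. CCT7 stood at 32.8, 25.5 and 22.5 scaled TPM with vehicle and at 40.4, 43.6 and 33.3 with DOX (limma adjusted p = 0.28), with no overlap of the groups. The list of other HSP70, DNAJ and HSPB genes, which also holds HSF2 and HSBP1, had a median of 0.04 over 19 genes. Its changes ran from -0.22 for HSPA13 to 0.34 for DNAJA3, and none was called in either fit.

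In the ER, the 28 other folding and disulfide genes had a median of 0.07, and voom with the block called 4 higher (QSOX1, PRKCSH, PPIB and SERPINH1) and 4 lower (DNAJC10, UGGT2, FKBP14 and TMX3), beside 5.65% of all genes higher and 7.93% lower. DNAJC10, a disulfide reductase with a J domain, went from -0.32 to 0.05 with the GC and length correction. UGGT2, of the glycoprotein folding sensor family, had the lowest value (-0.52), and the prolyl isomerase FKBP2 the highest (0.86, limma adjusted p = 0.28). FKBP2 stood at 7.28, 3.22 and 2.48 scaled TPM with vehicle and at 8.05, 6.87 and 9.24 with DOX, on 13 to 531 reads, and without vehicle replicate 1 its log2 fold change was 1.23 with a limma adjusted p of 0.0367. The translocon and signal peptidase genes had a median of 0.08 over 15 genes, from -0.48 for SEC62 to 0.25 for SSR2, and voom with the block called SEC62, SEC63 and SPCS3 lower. The 17 other ERAD genes had a median of 0.10, from -0.33 for EDEM3 to 0.28 for VCP, with EDEM3 called lower in voom with the block. Its change was 0.00 after the GC and length correction. The 9 other sensors and ER stress regulators had a median of -0.13, from -0.31 for MBTPS2 to 0.22 for WFS1, and none was called. After the GC and length correction the medians were -0.04 for these sensors and regulators, 0.26 for CCT, 0.15 for the other HSP70, DNAJ and HSPB genes, 0.21 for the HSP90 cochaperones and BAG genes, 0.01 for the folding and disulfide genes, 0.07 for the translocon and 0.09 for the other ERAD genes, beside 0.02 over all genes. The 7 listed genes under the minimum (BHLHA15, EDEM2, DERL3, TXNDC5, FKBP7, HSPA6 and HSPB6) had overlapping groups, with exact two-sided permutation p-values of 0.4 to 0.9 in a design whose smallest possible p is 0.1.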

How the data were processed

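RNA-seq of 6 DU-145/tet-XISTshRNA libraries, 3 with vehicle and 3 with DOX, was read from TPM per gene symbol. The submitters' processing notes say that the authors used STAR, DESeq2 and GRCh38, and the counting tool is not given in the sources used here. The TPM values were deposited by the authors and sum to 1000000 in each library. The authors also deposited the mean normalized count per gene over all libraries (a pooled signal from DESeq2), used only to recover reads, and fold changes and p-values of their own comparison, which were not used. No column was left without a sample (0 columns), and no libraries held identical values.

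TPM were scaled between libraries by the median of ratios, the kind of normalisation named by the authors. Genes with a mean scaled TPM of at least 1 were tested on log2(scaled TPM + 1) with limma 3.58.1 (R 4.3.3), using eBayes with a trend and no block, and p-values were adjusted by Benjamini-Hochberg over all 11595 genes. Calls were made where this adjusted p was under 0.05. A fold change on this scale understates the change of low genes. p-values measure the spread between these triplicate cultures, which may be technical.

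Reads were recovered from TPM and the mean normalized count, and 98.5% of 38579 low values (0.5 to 100 reads) came out within 0.1 of a whole number, against 20% by chance. They were rounded and tested with limma's voom. GC content and exonic length came from GENCODE 44 and were removed in each library by natural splines of 5 df. The labels number the replicates of both groups, and deviations of same-numbered libraries from their group means correlated at 0.56, 0.26 and 0.19, all over 0.1, while vehicle replicate 2 and DOX replicate 3 correlated at 0.22. By that threshold, the numbers were taken to pair the libraries, from these correlations alone.

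Both the 34 genes and the 7 pathway lists were chosen with earlier results of these data known. All 34 genes are named. Values per library are given for the member of each role with the highest mean and with the largest absolute log2 fold change, and for others where the text says why. From each pathway list the largest rise and fall are named. Alternatives were another pseudocount (0.1 or 5), another minimum (none or 5), no scaling, the block, the GC and length correction, voom, a fold minimum of 1.5 and leaving out each library in turn. TPM as deposited with the block, and voom with the block and the correction, were added after seeing the data. Limma on scaled TPM and voom with the block were also run on simulated counts. Those counts held no pairing of replicates and no GC or length bias, so they do not test the block or the correction. Promoter sequences are from RefSeq, and tables and figures were made with Python 3.11.15, pandas 2.3.3, SciPy 1.17.1 and matplotlib 3.10.9.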

Additional observations from a re-analysis of the deposited data

How the results depend on the processing

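No chaperone gene was called under another pseudocount, another minimum, the replicate block on scaled TPM, the GC and length correction or any left-out library. Voom with the replicate block called 1 ER gene higher and 2 lower and 4 cytosolic or mitochondrial genes higher, none at a fold over 1.5, and TPM as deposited with the replicate block called 8 ER genes lower. Counts over all genes moved from 0 higher and 0 lower to 4 and 348 on TPM as deposited, 655 and 920 in voom with the replicate block, and 30 and 3971 on TPM as deposited with the replicate block. Voom without the block called 1 gene lower, a minimum of 5 scaled TPM 1, and voom with the block and the correction 4. Leaving out a library gave 0 to 13 genes higher and 0 to 1 lower, with the 13 coming without vehicle replicate 1. The block on scaled TPM changed no other call.

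The ER median was -0.38 on TPM as deposited, with or without the block, and -0.014 in voom with the block and the correction, and it ran from -0.024 without vehicle replicate 3 to 0.088 without DOX replicate 2. The median of the cytosolic and mitochondrial genes was -0.24 on TPM as deposited, with or without the block. On that scale a median log2 fold change of all genes of -0.35 was found, against 0.00052 with no minimum and 0.0048 to 0.031 with a library left out.

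On TPM as deposited, with the same values with the block, 25 of the 48 genes named by the rule turned from above to below 0, namely HSPA5 (-0.36), DNAJB11 (-0.38), SDF2L1 (-0.026), HERPUD1 (-0.38), XBP1 (-0.40), PDIA3 (-0.30), PDIA4 (-0.21), PDIA6 (-0.36), P4HB (-0.21), CALR (-0.24), CRELD2 (-0.28), MANF (-0.053), HYOU1 (-0.082), SYVN1 (-0.40), HSPA1A (-0.27), HSPA1B (-0.13), HSPA8 (-0.063), DNAJB1 (-0.22), HSP90AB1 (-0.34), HSPD1 (-0.36), WFS1 (-0.20), VCP (-0.16), SSR2 (-0.19), DNAJA3 (-0.022) and CCT2 (-0.34). With the GC and length correction, again with or without the block, 12 of these 48 turned sign, namely SDF2L1 (-0.023), XBP1 (-0.025), CANX (0.17), CRELD2 (-0.16), SYVN1 (-0.15), HSPA1A (-0.16), HSPA1B (-0.067), HSPH1 (0.18), HSP90AA1 (0.036), EDEM3 (0.00048), HSPA13 (0.043) and CHORDC1 (0.11). In voom with the block and the correction 13 of the 48 did, namely SDF2L1 (-0.29), XBP1 (-0.037), CALR (-0.010), CANX (0.21), CRELD2 (-0.15), SYVN1 (-0.17), HSPA1A (-0.16), HSPA1B (-0.051), HSPH1 (0.23), HSP90AA1 (0.054), EDEM3 (0.017), HSPA13 (0.065) and CHORDC1 (0.15). DNAJB11 was -0.022 in voom and -0.0025 in voom with the block. With a library left out, 13 of the 48 genes changed sign, running from -0.023 to 0.15 for HSPA5, from -0.11 to 0.15 for DNAJB11, from -0.073 to 0.64 for SDF2L1, from -0.034 to 0.13 for HERPUD1, from -0.025 to 0.094 for XBP1, from -0.16 to 0.015 for CANX, from -0.078 to 0.15 for CRELD2, from -0.12 to 0.11 for SYVN1, from -0.28 to 0.053 for HSPH1, from -0.20 to 0.12 for HSP90AA1, from -0.054 to 0.19 for HSPD1, from -0.11 to 0.16 for HSPE1 and from -0.49 to 0.031 for CHORDC1. The cause of these reversals was not tested. Of the 34 genes, 22 had the same sign whichever library was left out. SDF2L1, CRELD2 and HSPE1 had the fewest reads of the 34 genes, with 7, 28 and 82 in the shallowest library.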
